A study of Mus musculus with 12 samples.

Results

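Wild-type myeloid progenitors were compared with wild-type stem cells, by RNA sequencing of 6 of the 12 mouse libraries of the study, 3 in each group. The libraries were chosen by sample title, but the comparison and the gene lists below were chosen with earlier results of these data known. The first group held haematopoietic stem cells (HSC), for which the labels give a lineage-negative, Sca1+, Kit+, CD48-, CD150+ sort. The second held pre-granulocyte-macrophage progenitors (preGM), sorted as lineage-negative, Kit+ cells without Sca1, CD150, CD105, CD41 or CD16/32. Both came from the C57bl/6 WT strain (WT), and both were cultured for 48 h with SCF (10 to 50 ng/ml), IL3 and G-CSF (5 ng/ml each) and doxycycline (1 microg/ml), in OptiMEM holding 10% serum. The other 6 libraries held the same gates from a strain labelled Col1a1-MLL/ENL, grown in the same medium, and entered the fit to share its estimate of the spread. The labels do not give the age of the mice, whether animals were pooled, or whether replicates were separate animals or cultures. P-values therefore rest on how far these libraries lie apart, and that spread may be technical. The question put to this pair of groups was how normal preGM and HSC differ in mRNA after the culture.

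HSC renew themselves and give rise to every blood lineage, and they hold a set of transcription factors (Hlf, Meis1, Mecom) that falls silent as cells commit. Commitment to granulocytes and monocytes runs through PU.1 (Spi1) and the C/EBP proteins. Granule proteins then appear in a fixed order, with the proteases of the primary granules first and the proteins of the secondary granules later.

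Of 15711 genes tested, 2888 (18.4%) were higher and 3154 (20.1%) lower in preGM than in HSC at an adjusted p under 0.05 (edgeR quasi-likelihood test, Benjamini-Hochberg adjustment over all tested genes), 38.5% in all. The libraries of the groups did not overlap for 7600 genes (48.4%). The log2 change exceeded 1 in size for 4857 of the called genes, 636 were called with a log2 change above 3, and 848 with one below -3. Calls higher in preGM made up 47.8% of all calls with the TMM scaling used here, which places the median gene at a log2 change of -0.03. Scaling by library size alone moved that median to -0.73 and the share of higher calls to 16.2%, with 1190 higher and 6149 lower. Of the called genes, 74 (1.22%) changed sign between these scalings. As the median moved down, a change of sign was open mainly to called genes with small rises. The plot of change against level shows the called genes of both directions over the whole range of levels.

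**Figure D1:**
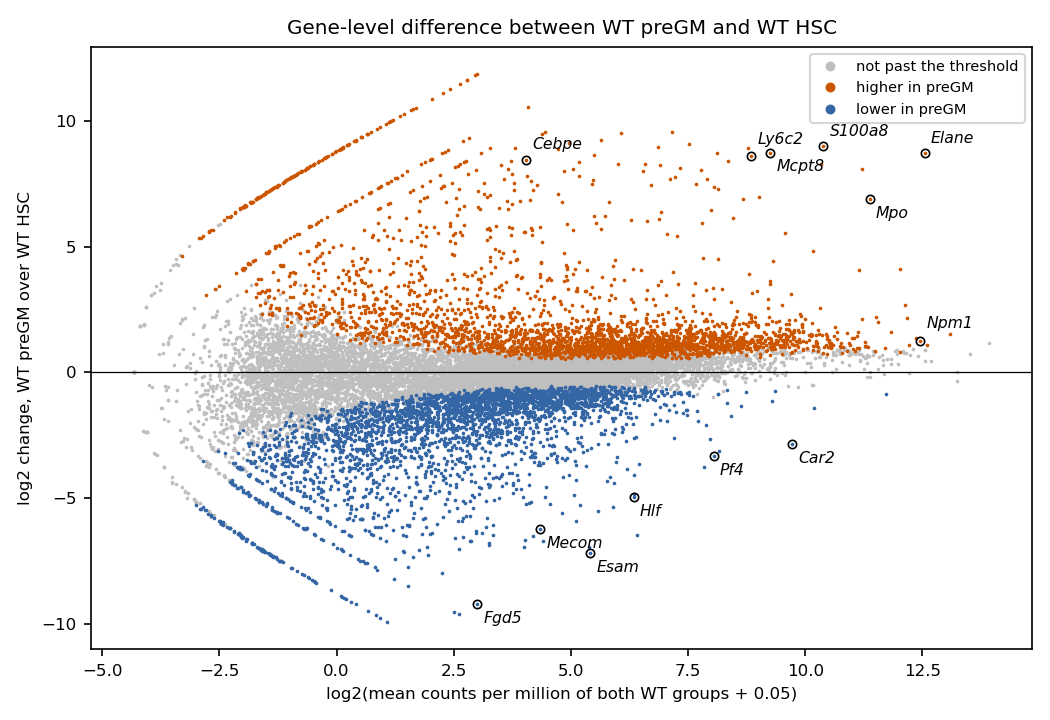
Log2 change of each of the 15711 tested genes (WT preGM over WT HSC, vertical axis) against the log2 mean level in CPM, gene counts per megacount of the library (horizontal axis); orange and blue points passed the threshold and grey points did not, and circles mark named genes. Elane, Mpo and S100a8 combine a large rise with a high level, and Fgd5, Esam and Mecom lie lowest among the named genes; the diagonal bands at the left are genes with no or very few counts in 1 group.

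Depth was 14.53 to 18.16 megacounts of gene counts per HSC library and 34.74 to 44.49 per preGM library. Mitochondrial genes took 5.40% to 5.92% of the counts in HSC and 2.71% to 4.09% in preGM, and introns gave 3.73 to 4.11 and 1.24 to 2.02 counts per 100 gene counts. With all libraries thinned to the smallest total, 2593 genes were higher and 3077 lower. The part of the mitochondrial and intron shares in the results was not tested. HSC and preGM of both strains lay apart on the first principal component (58.3% of the variance). WT preGM replicate 2 stood apart on the second component (11.04% of the variance), at 59.98 against 10.86 and 5.49 for replicates 1 and 3. MLL preGM replicate 1 stood apart too, at -75.11 against -23.91 and -25.83, and without it 3485 genes were higher and 3626 lower. Of the counts of WT preGM replicate 2, 1.78% lay in ribosomal-RNA-like features, against at most 0.69% in the other 11 libraries. Without WT preGM replicate 2, 3161 genes were higher and 3155 lower, and 5237 of the 6042 called genes were called again. Because the samples are bulk RNA, fewer cells of a type and less RNA per cell cannot be told apart for any gene below.

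The antigens of the sort were read first, since they check the labels. Kit, the SCF receptor and a marker of both gates (chromosome 5, 75574916 to 75656722, GRCm38), had 113, 86.5 and 85.5 CPM (gene counts per megacount of the library, TMM scaled) in the HSC libraries and 23.2, 30.5 and 26.9 in preGM. The RNA was thus present in every library but lower in preGM, without overlap (log2 change -1.82 ± 0.38 SE, adjusted p = 0.00155). Ly6a, which encodes Sca1, fell from 139 ± 12.7 to 23.1 ± 4.29 CPM (SD, n = 3) and Slamf1, which encodes CD150, from 12.8 ± 5.02 to 0.139 ± 0.0484 CPM. Eng (CD105) and Itga2b (CD41), whose proteins were gated out of preGM, had log2 changes of -3.37 and -3.42.

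The other 3 of the 8 antigen genes rose (100% of the 8 called, against 38.5% of all genes). For Fcgr3 and Fcgr2b the RNA stood against the gate. Fcgr3 and Fcgr2b encode the CD16/32 receptors that the preGM gate lacks. Fcgr3 had 1.23, 0.543 and 1.85 CPM in HSC and 236, 137 and 250 CPM in preGM (log2 change 7.46 ± 0.46, adjusted p = 1.12e-08). Fcgr2b went from 2.28 ± 0.410 to 153 ± 59.3 CPM (log2 change 6.07 ± 0.40). Cd48, whose protein was gated out of HSC, had 108, 134 and 91.4 CPM in HSC and 437, 246 and 407 CPM in preGM. The lowest preGM library lay above the highest HSC library, in the direction of the gate, but the HSC level was well above the floor of 0.163 CPM that 3 counts in a library correspond to. The labels do not state whether the gate came before or after the culture.

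Transcription factors of stem cells were lower in preGM as a group. Of 26 such genes, all tested, 24 fell and 2 did not pass the test (92.3% called, against 38.5% of all genes). The median log2 change was -2.35, against -0.03 over all genes. With the gene that had no counts in preGM (Hoxb6) at its bound, the median was -2.13. Hlf, a PAR-family factor of HSC (chromosome 11, 90336536 to 90390895), had 167, 158 and 145 CPM in the HSC libraries and 5.79, 4.93 and 4.27 CPM in preGM. The 2 groups lay far apart and each was tight (log2 change -4.97 ± 0.25, adjusted p = 2.70e-09). Meis1, a homeodomain partner of HOX proteins, had 136, 140 and 134 CPM in HSC and 9.05, 8.94 and 10.2 CPM in preGM (log2 change -3.86 ± 0.40, adjusted p = 2.22e-06). Mecom, which encodes the zinc finger factor EVI1, had 43.1, 42.9 and 34.1 CPM in HSC and 0.567, 0.652 and 0.398 CPM in preGM. Its log2 change was -6.23 ± 0.31 (adjusted p = 2.70e-09).

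Among the 24 that fell, log2 changes ranged from -0.91 to -7.25. The larger falls belonged to Tcf15 (-7.25), Nkx2-3 (-6.59), Hoxb5 (-6.41), Gata3 (-6.37), Mycn (-5.93) and Hoxa10 (-5.13). Mycn, a MYC family gene, went from 68.1 ± 3.26 to 1.13 ± 0.591 CPM. Factors that other progenitors also use had smaller fitted falls. Runx1 went from 59.8 ± 7.19 to 31.8 ± 9.88 CPM (log2 change -0.91 ± 0.24), Gata2 from 80.4 ± 6.84 to 35.9 ± 6.99 CPM (-1.16 ± 0.21), Lmo2 from 257 ± 14.8 to 91.1 ± 21.9 CPM (-1.50 ± 0.27) and Tal1 from 51.8 ± 8.70 to 15.9 ± 5.63 CPM (-1.71 ± 0.31). Hoxa9 fell by 1.57 ± 0.22, and Erg fell by 2.62 ± 0.25.

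Surface and signalling genes of stem cells had a median log2 change of -4.0 over 25 tested genes. Of these, 22 fell, 1 rose and 2 did not pass (92% called, against 38.5% of all genes). Esam, an endothelial-type adhesion molecule of HSC (chromosome 9, 37528078 to 37538319), had 85.5, 84.5 and 83.1 CPM in HSC and 0.597, 0.372 and 0.711 CPM in preGM (log2 change -7.19 ± 0.33, adjusted p = 1.65e-09). Adgrg1, an adhesion G-protein-coupled receptor, had 428, 430 and 416 CPM in HSC and 25.9, 32.4 and 34.7 CPM in preGM (-3.78 ± 0.44). Adgrg1 and Esam did not overlap between the groups. Fgd5, a marker used to label HSC, went from 15.8 ± 4.15 to 0.0255 ± 0.0236 CPM (-9.22 ± 0.52), below the preGM floor of 0.105 CPM. Robo4 (-9.52 ± 0.57) and Tek, the angiopoietin receptor (-5.78 ± 0.60), fell, as did its ligand gene Angpt1 (-3.66 ± 0.27).

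Cd34 had 263, 276 and 213 CPM in HSC and 37.0, 36.3 and 51.0 CPM in preGM, so both groups held it and did not overlap (-2.60 ± 0.29, adjusted p = 4.30e-06). Procr, which encodes EPCR, fell by 2.82 ± 0.28. Thy1 was the gene that rose, from 0.950, 2.76 and 1.42 to 3.91, 12.1 and 3.41 CPM. The rise of 1.90 ± 0.54 (adjusted p = 0.0113) rested on preGM replicate 2: without it the log2 change was 1.09 and the adjusted p 0.0929. The call was also lost without HSC replicate 1 (adjusted p = 0.0512) and with library size alone (0.0892). Ifitm1 and Ifitm3, which encode antiviral membrane proteins, were abundant in both groups, at 2125 ± 236 and 887 ± 56.5 CPM in HSC and 3435 ± 1463 and 1546 ± 656 CPM in preGM, and did not pass (adjusted p = 0.130 and 0.0738). Ifitm1 was called higher in 2 of 16 alternative settings and Ifitm3 in 4.

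**Figure D2:**
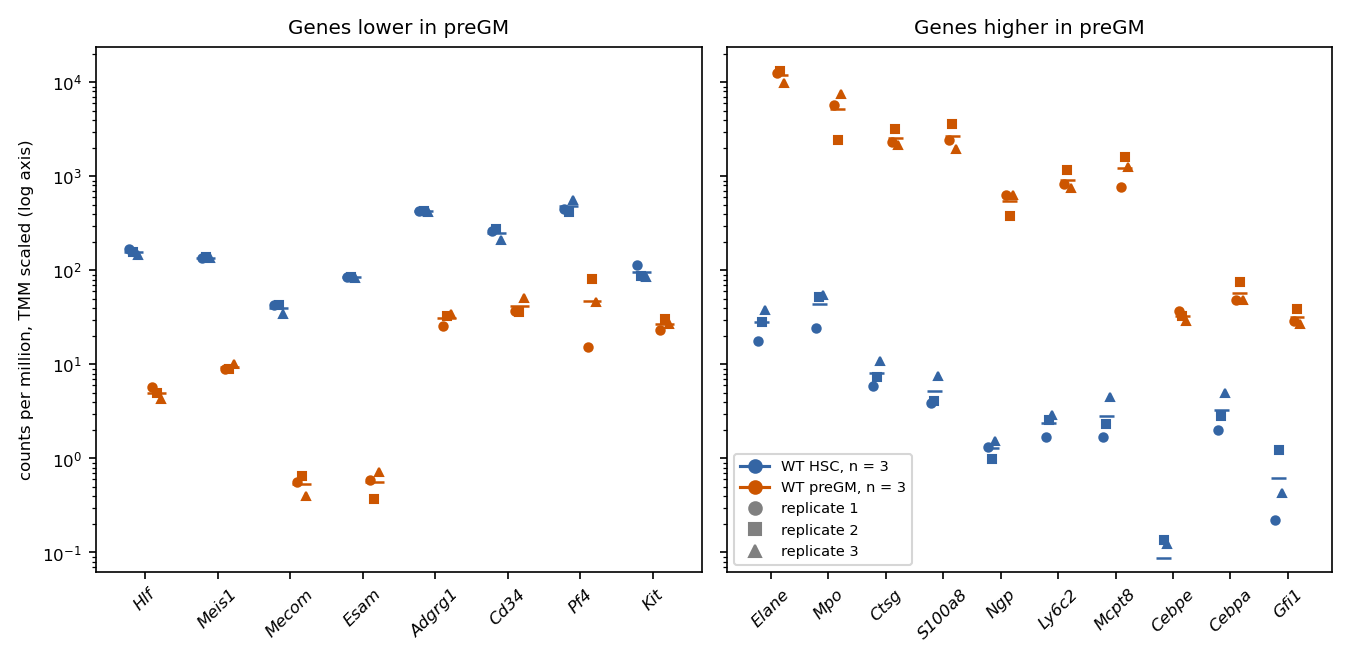
TMM-scaled CPM on a log axis for 8 genes lower in preGM (left) and 10 genes higher in preGM (right), with 1 point per library, the replicate given by the symbol and the mean by a bar. No gene shown has overlapping groups; Mpo is lowest in preGM replicate 2, and the HSC library with no Cebpe counts is off the log axis.

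Transcription factors of granulocyte and monocyte fate moved the other way. Of 17 tested genes, 11 rose (64.7%, against 18.4% of all genes), 3 fell and 3 did not pass. The median was 2.55, or 1.92 with Egr2, which had no counts in HSC, at its bound. Egr2 had a mean of 0.419 CPM in preGM, and its call held in 5 of the 9 alternative settings that tested it. Cebpa, which encodes the factor that starts granulocyte commitment (chromosome 7, 35119293 to 35121928), had 2.01, 2.81 and 4.98 CPM in HSC and 48.4, 74.7 and 47.9 CPM in preGM. All preGM libraries exceeded all HSC libraries (log2 change 4.13 ± 0.40, adjusted p = 9.85e-07). Cebpe, which drives the later granule genes, had 0, 0.136 and 0.123 CPM in HSC and 36.7, 32.5 and 28.9 CPM in preGM (8.46 ± 0.84, adjusted p = 1.33e-06). Its HSC mean of 0.0863 CPM lay below the floor. Gfi1, a repressor needed for neutrophil formation, went from 0.626 ± 0.527 to 31.6 ± 6.48 CPM (5.59 ± 0.46).

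Factors of the monocyte branch rose as well. Irf8 went from 2.51 ± 1.77 to 38.1 ± 2.65 CPM (3.92 ± 0.41) and Klf4 from 1.2 ± 1.57 to 18.5 ± 6.32 CPM (3.95 ± 0.70). Spi1, which encodes PU.1, was already present in HSC at 8.21, 7.43 and 10.3 CPM and reached 27.7, 48.3 and 22.2 CPM in preGM. Its log2 change was 1.92 ± 0.32 (adjusted p = 0.000245). Cebpb (2.55 ± 0.40) and Cebpd (3.72 ± 0.51) rose, and Cebpb shares 20.7% of its exon bases with another annotated gene, so its reads are uncertain. Id2, an inhibitor of E proteins, rose by 1.73 ± 0.28. The 3 that fell were Mef2c (-2.07 ± 0.24), a factor of lymphoid and early progenitors, Stat3 (-0.72 ± 0.26) and Myb (-0.77 ± 0.22), from 204 ± 5.85 to 120 ± 12.7 CPM. The call for Myb was lost without preGM replicate 1 (adjusted p = 0.0699), and that for Stat3 in 6 of 16 alternative settings, with adjusted p up to 0.176.

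Primary granule genes had the largest difference in summed CPM of the 29 lists. All 12 genes of the list rose, against 18.4% of all genes, with a median log2 change of 3.80. Their summed level was 2852 to 3131 CPM in the HSC libraries and 36033 to 40592 CPM in preGM. Elane, the neutrophil elastase gene (chromosome 10, 79886247 to 79888215), had 17.6, 28.4 and 38.1 CPM in HSC and 12716, 13246 and 9808 CPM in preGM. The log2 change was 8.73 ± 0.46 (adjusted p = 2.97e-09). Elane ranked 2 in preGM by level per length, at 12960 counts per kilobase and megacount. That rank is among tested protein-coding genes, without mitochondrial genes and genes sharing at least 10% of exon bases. Ctsg, the cathepsin G gene, had 5.87, 7.38 and 11 CPM in HSC and 2311, 3209 and 2161 CPM in preGM (8.31 ± 0.45). Ms4a3, a membrane protein of granulocyte-monocyte progenitors, had 12.7, 18.4 and 20.7 CPM in HSC and 4620, 5472 and 3975 CPM in preGM (8.08 ± 0.44). Mpo, the myeloperoxidase gene, had 24.7, 52.3 and 54.6 CPM in HSC and 5738, 2432 and 7586 CPM in preGM (6.90 ± 0.56). PreGM replicate 2 was the lowest for Mpo and the highest for Elane, Ctsg and Ms4a3. Mpo shares 16% of its exon bases with another annotated gene.

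The promoters of these 4 genes, the members of the list with the largest log2 changes, are shown because the genes moved together. Each runs from 250 bases before to 50 bases after a RefSeq start (GRCm38.p6), 5′ to 3′ on the gene's strand. Capitals mark matches, on either strand, to GAGGAA, a core of PU.1 and other ETS factors, and to TTNNGNAA, a C/EBP-like motif in which N is any base.
Elane (chr10:79886062-79886361, plus strand): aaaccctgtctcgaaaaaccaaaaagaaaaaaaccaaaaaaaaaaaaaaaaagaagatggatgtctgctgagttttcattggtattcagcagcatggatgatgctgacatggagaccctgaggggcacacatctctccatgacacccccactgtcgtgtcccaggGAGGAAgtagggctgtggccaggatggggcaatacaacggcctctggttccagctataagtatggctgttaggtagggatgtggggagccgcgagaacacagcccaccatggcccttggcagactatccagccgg
Ctsg (chr14:56102525-56102824, minus strand): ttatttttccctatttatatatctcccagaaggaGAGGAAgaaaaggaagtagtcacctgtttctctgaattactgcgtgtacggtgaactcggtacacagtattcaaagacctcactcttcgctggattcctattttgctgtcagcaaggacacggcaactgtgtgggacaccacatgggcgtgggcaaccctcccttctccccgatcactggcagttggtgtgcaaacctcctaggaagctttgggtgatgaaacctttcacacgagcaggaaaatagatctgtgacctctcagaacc
Ms4a3 (chr19:11640802-11641101, minus strand): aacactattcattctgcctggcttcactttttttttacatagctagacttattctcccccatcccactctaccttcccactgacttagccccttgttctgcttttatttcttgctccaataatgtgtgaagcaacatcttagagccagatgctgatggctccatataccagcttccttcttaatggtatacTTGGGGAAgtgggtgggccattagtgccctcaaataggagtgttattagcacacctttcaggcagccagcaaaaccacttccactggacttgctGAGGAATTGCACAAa
Mpo (chr11:87793534-87793833, plus strand): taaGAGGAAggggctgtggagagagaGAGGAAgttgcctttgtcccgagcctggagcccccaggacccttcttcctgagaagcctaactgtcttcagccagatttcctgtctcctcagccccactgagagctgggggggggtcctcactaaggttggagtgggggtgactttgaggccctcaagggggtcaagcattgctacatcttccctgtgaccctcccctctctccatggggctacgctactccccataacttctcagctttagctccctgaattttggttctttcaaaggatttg
The RefSeq start used for Elane lies 65 bases from that of the gene model counted here, and that for Mpo 203 bases. GAGGAA occurred once in Elane, Ctsg and Ms4a3 and 2 times in Mpo, and TTNNGNAA 2 times in Ms4a3 alone, where 1 match adjoins GAGGAA without overlap. Among primary granule genes with a promoter in the table, 7 of 10 (70%) held GAGGAA and 3 (30%) TTNNGNAA. Over all 18459 promoters of the same length the shares were 27.7% and 37.5%. They were 52.6% and 73.7% for secondary granule and neutrophil genes. Among the lists that fell, stem cell surface and signalling genes had 40% and 40%, and stem cell transcription factors 11.1% and 44.4%. A match is a description of the letters and not of a bound site.

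Among the other primary granule genes, Prtn3 (proteinase 3) was already at 225, 237 and 292 CPM in HSC and reached 4452, 4925 and 3497 CPM in preGM (4.09 ± 0.32). Srgn, the serglycin core on which granule proteins are packed, was higher still in HSC, at 1199 ± 50.5 CPM, and went to 4788 ± 1021 CPM (2.0 ± 0.33). Cst7 (6.14 ± 0.55), Nkg7 (3.5 ± 0.39), Prss57 (3.49 ± 0.25) and Ctsc (2.06 ± 0.31), which encodes the protease that activates the granule proteases, also rose. Serpinb1a, an inhibitor of elastase, had 1627, 489 and 1650 CPM in preGM, with replicate 2 near the 412 ± 27.5 CPM of HSC (1.61 ± 0.38). Cd63, a granule membrane protein, was the member nearest the threshold (0.91 ± 0.34, adjusted p = 0.0425). Its call was lost in 8 of 16 alternative settings, among them leaving out any one of the HSC libraries.

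Secondary granule and neutrophil genes rose from a lower start. Of 20 tested genes, 19 rose (95%, against 18.4% of all genes), and 1, Padi4, went from 11.1 ± 1.53 to 6.74 ± 1.46 CPM without passing. DESeq2 gave 16 higher genes, library size alone 17, and leaving out 1 library 17 to 19. Padi4 was called lower in 3 of 16 alternative settings. Mmp9 had too few counts to test, with 0 in HSC and 3 to 7 in preGM. The median log2 change was 7.71, or 7.15 with Fpr1, which had no counts in HSC, at its bound. Fpr1 had a mean of 0.833 CPM in preGM, and its call held in 8 of the 15 alternative settings that tested it. S100a8, an alarmin of neutrophils (chromosome 3, 90668978 to 90670035), had 3.86, 4.12 and 7.57 CPM in HSC and 2423, 3619 and 1946 CPM in preGM (9.01 ± 0.53, adjusted p = 6.85e-09). S100a9, its partner, had 1.34, 1.77 and 2.21 CPM in HSC and 807, 1142 and 665 CPM in preGM (8.94 ± 0.47). Ngp went from 1.29 ± 0.274 to 551 ± 152 CPM (8.74 ± 0.46) and Lcn2, the neutrophil siderophore binder, from 0.374 ± 0.137 to 285 ± 87.4 CPM (9.56 ± 0.56). Hp, the haptoglobin gene, reached 654 ± 196 CPM and Cybb, a subunit of the NADPH oxidase, 99.9 ± 26.8 CPM.

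Among genes of the later granules, Camp (cathelicidin) had 54.2, 106 and 55.9 CPM, Ltf (lactoferrin) 30.6, 16.7 and 57.5 CPM and Mmp8 25.8, 16.8 and 41.5 CPM in the 3 preGM libraries. All 3 stayed at or below 1.09 CPM in every HSC library. Chil3 had 157, 47.5 and 181 CPM in preGM, with replicate 2 the lowest. Lyz2 (lysozyme) was expressed in both groups, at 170 ± 17.1 CPM in HSC and 1017 ± 300 CPM in preGM (2.58 ± 0.34). The summed level of the list was 396 to 411 CPM in HSC and 7078 to 7862 CPM in preGM.

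All 14 monocyte and macrophage genes rose, against 18.4% of all genes. Their median of 4.57 stayed at 4.57 with the genes without HSC counts at their bounds. Ly6c2, the monocyte Ly6C antigen (chromosome 15, 75108158 to 75111970), had 1.68, 2.54 and 2.89 CPM in HSC and 832, 1176 and 748 CPM in preGM (8.60 ± 0.46, adjusted p = 3.23e-09). Ccr2, the chemokine receptor of inflammatory monocytes, went from 1.46 ± 0.699 to 91.7 ± 11.7 CPM (5.95 ± 0.45). F13a1 reached 52.6 ± 5.65 CPM and Ly86 184 ± 41.6 CPM. Mpeg1 (perforin-2) and Adgre1, a macrophage receptor gene, had no counts in any HSC library and 15.5 ± 4.31 and 10.6 ± 2.88 CPM in preGM, at least 95.0-fold and 65.0-fold higher against a floor of 3 counts per library. Csf1r, the M-CSF receptor, rose by 1.70 ± 0.39, from 9.14 ± 3.88 to 29.6 ± 7.71 CPM. That call was lost with library size alone (log2 change 0.97, adjusted p = 0.0887), and Csf1r shares 17.8% of its exon bases with another gene. MHC class II genes rose in 5 of 7 cases (71.4%, against 18.4% of all genes). With library size alone 4 rose and 1 fell. Cd74, the invariant chain, had 4.64, 5.66 and 6.77 CPM in HSC and 279, 99.6 and 402 CPM in preGM (5.52 ± 0.49), and H2-Aa (5.92 ± 0.54), H2-Eb1 (3.78 ± 0.64) and H2-Ab1 (2.53 ± 0.29) rose with it. H2 genes have similar copies, so their reads are uncertain.

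Mast cell, basophil and eosinophil genes were nearly absent from HSC and abundant in preGM. Their summed level was 13.6 to 19.7 CPM in HSC and 1619 to 2648 CPM in preGM. Of 11 tested genes, 10 rose (90.9%, against 18.4% of all genes), and Il4 (7.55 ± 3.84 and 3.34 ± 2.53 CPM) did not pass. Il4 was called lower in 5 of 16 alternative settings. The median was 7.62, or 6.81 with Cma1 at its bound. Mcpt8, a basophil protease (chromosome 14, 56082166 to 56085273), had 1.68, 2.31 and 4.49 CPM in HSC and 775, 1619 and 1244 CPM in preGM (8.75 ± 0.58, adjusted p = 2.08e-08). Cpa3, the mast cell carboxypeptidase, had 456, 330 and 634 CPM in preGM (7.69 ± 0.59), and Prss34, a basophil protease, 146, 113 and 432 CPM (8.98 ± 0.71). Ms4a2 and Fcer1a, subunits of the IgE receptor, rose by 7.62 ± 0.64 and 3.60 ± 0.33. The eosinophil gene Prg2 varied widely, with 7.41, 179 and 78.3 CPM in preGM (7.65 ± 0.94, adjusted p = 1.27e-05). The connective-tissue mast cell tryptase genes Tpsb2 and Tpsab1 had 0 to 3 counts in each of these libraries. IL3 and SCF, which support mast cells and basophils, were in the medium of both groups.

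Megakaryocyte genes were lower in preGM. Of 15 tested genes, 12 fell, 1 rose and 2 did not pass (86.7% called, against 38.5% of all genes). The median was -3.34. Pf4, a platelet chemokine (chromosome 5, 90772435 to 90773383), had 454, 422 and 565 CPM in HSC and 15.3, 81.5 and 46.0 CPM in preGM. All preGM libraries stayed below all HSC libraries (-3.34 ± 0.56, adjusted p = 0.000227). Vwf (von Willebrand factor) fell from 42.4 ± 2.63 to 1.83 ± 0.796 CPM and Selp (P-selectin) from 42.1 ± 4.86 to 1.38 ± 0.377 CPM. Cd9, a tetraspanin of platelets, fell by 1.92 ± 0.38. The gene that rose was Thbs1, which encodes thrombospondin 1, from 3.24 ± 1.47 to 69.3 ± 18.2 CPM (4.4 ± 0.46), and monocytes are known to make it too.

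Erythroid genes split, with 6 of 17 higher, 5 lower and 6 not past the test (64.7% called, against 38.5% of all genes). The median of 0.53 turned to -0.12 with library size alone. Car2, the most abundant of those that fell by CPM, had 1465, 1617 and 1346 CPM in HSC and 262, 72.3 and 285 CPM in preGM (-2.84 ± 0.42, adjusted p = 7.53e-05). Hbb-bt, a beta globin gene with near-identical copies and thus uncertain, fell by 1.92 ± 0.41, and Epor, the erythropoietin receptor, by 1.94 ± 0.37. Higher in preGM were Tfrc, the transferrin receptor (2.31 ± 0.30, from 41.2 ± 4.26 to 205 ± 17.3 CPM), and Car1 (6.69 ± 0.74).

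Of 10 tested lymphoid genes 3 were higher and 2 lower (50% called, against 38.5% of all genes). The list had a summed level of 219 to 235 CPM in HSC and 185 to 270 CPM in preGM. Its median was 0.31 (-0.39 with library size alone). The 8 untested genes, among them Il7r, Rag1, Pax5 and Cd3e, reached at most 0.926 CPM in any of the 6 libraries. Dntt (terminal transferase) fell from 3.38 ± 0.942 to 0.145 ± 0.0865 CPM and Bcl11a from 83.3 ± 7.30 to 15.8 ± 2.88 CPM. Ighm rose, with 92.2, 15.2 and 86.4 CPM in preGM against at most 1.62 CPM in HSC (5.68 ± 0.60). Igll1, a surrogate light chain, had no HSC counts and 3.69 ± 1.46 CPM in preGM, at least 22.7-fold higher, and Satb1 rose by 1.14 ± 0.38, a call lost in 6 of 16 alternative settings (adjusted p up to 0.386). Stromal and endothelial genes were low in both groups, with sums of 16.2 to 18.6 CPM in HSC and 32.8 to 35.0 CPM in preGM. Of the 5 tested, Kdr and Col1a2 fell and Pecam1 and Vcam1 rose (80% called, against 38.5% of all genes). Cxcl12 had no counts and Cdh5 at most 0.543 CPM. The call for Pecam1 was lost with library size alone (adjusted p = 0.392) and without HSC replicate 2 (0.0605). Vcam1 had no HSC counts and a mean of 0.917 CPM in preGM, at least 5.64-fold higher.

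**Figure D3:**
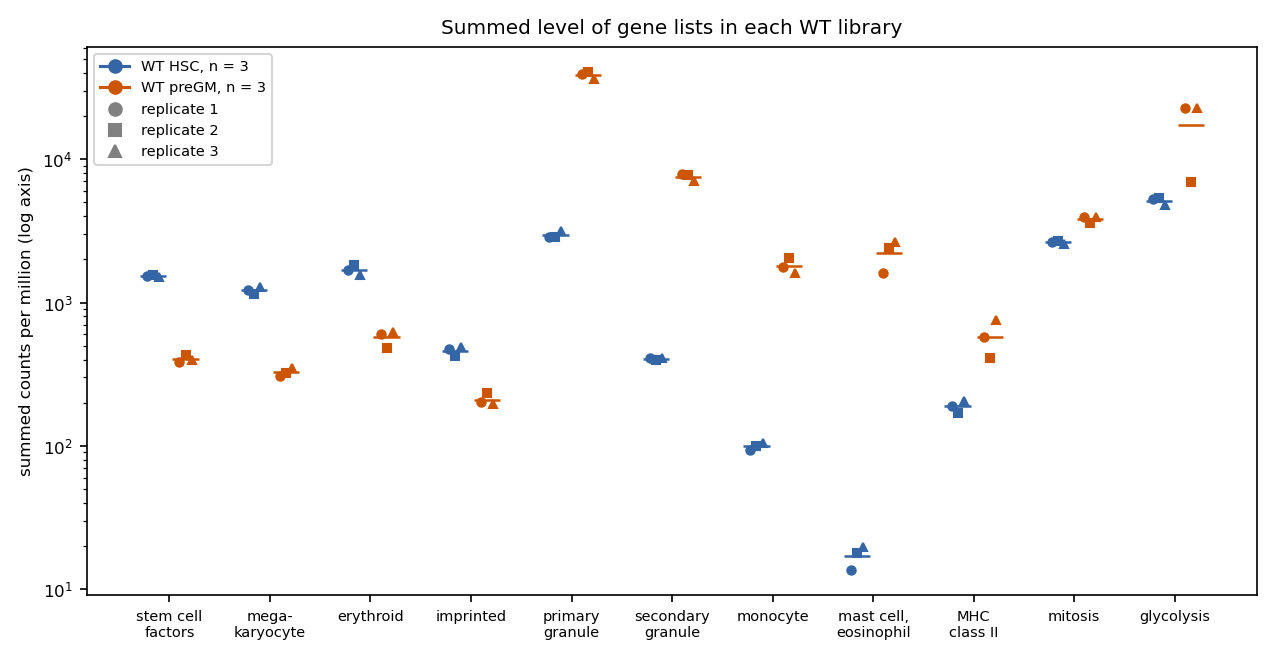
Summed CPM (log axis) of 11 gene lists in each WT library, with 1 point per library, the replicate given by the symbol and the mean by a bar. Primary granule genes reach 36033 to 40592 in preGM, and for glycolysis preGM replicate 2 (6928) lies near the HSC libraries (4795 to 5320) and far below replicates 1 and 3.

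Receptors of the cytokines in the medium differed by subunit. Csf2rb, the common beta chain used by IL3, GM-CSF and IL5 (chromosome 15, 78325752 to 78353847), had 37.3, 36.7 and 45.2 CPM in HSC and 176, 208 and 195 CPM in preGM (2.28 ± 0.27, adjusted p = 1.02e-05). Csf2rb2, the mouse IL3-specific beta chain and a near copy of it, rose by 1.27 ± 0.28, a call lost with library size alone (adjusted p = 0.166). Csf3r, the G-CSF receptor, had 14.4, 15.1 and 12.6 CPM in HSC and 20.6, 22.2 and 19.7 CPM in preGM. The libraries did not overlap, but the change of 0.57 ± 0.36 did not pass (adjusted p = 0.224). It passed without MLL preGM replicate 1 (adjusted p = 0.00909) and without both that library and WT preGM replicate 2 (adjusted p = 0.0132), and turned to -0.14 with library size alone. Il3ra, the IL3 alpha chain, was low in both (0.601 ± 0.538 and 2.15 ± 0.973 CPM, adjusted p = 0.0571). Its rise passed in 5 of 16 alternative settings. Kit, the SCF receptor, was the one that fell.

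Of 15 other tested cytokine receptor genes, 6 rose and 5 fell (73.3% called, against 38.5% of all genes). The median of 0.41 became -0.26 with library size alone. Il1rl1, the IL33 receptor (5.16 ± 0.67), Ifngr1 (1.76 ± 0.33) and Csf2ra (1.45 ± 0.26) were among the higher, and Tek, Epor and Tgfbr2 (-1.64 ± 0.25) among the lower. Flt3 did not pass (14.4 ± 1.28 and 9.19 ± 0.350 CPM, adjusted p = 0.0983), although its libraries did not overlap. Its fall passed in 5 of 16 alternative settings, among them the 6 WT libraries alone (adjusted p = 0.0201) and library size alone (0.00986). Feedback genes of cytokine signalling fell in 4 of 9 cases, led by Pim2 (-3.18 ± 0.33) and Socs2 (-2.26 ± 0.20, from 101 ± 7.25 to 21.1 ± 2.18 CPM), and Osm and Pim1 rose, the latter a call lost in 4 of 16 alternative settings. The share of feedback genes called was 66.7%, against 38.5% of all genes. Of 18 immediate early and ERK feedback genes, 5 fell and 3 rose (44.4% called, against 38.5% of all genes), and 9 fell with library size alone. Egr1 fell from 12.1 ± 1.03 to 1.24 ± 0.357 CPM (-3.31 ± 0.30) and the ERK phosphatase gene Dusp6 by 2.14 ± 0.45. The 3 that rose stayed low: Fos reached 3.59 ± 0.563, Klf2 1.29 ± 0.384 and Atf3 1.42 ± 0.583 CPM, the last at least 8.73-fold above the HSC floor.

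Mitosis and replication genes had a smaller share of calls than all genes. Of 21 mitosis genes 6 (28.6%) rose (Aurka, Birc5, Plk1, Ccnb1, Ube2c and Cdk1) and none fell, against 18.4% higher and 38.5% called over all genes, with a median of 0.41. With library size alone 1 rose and 5 fell and the median was -0.31, where that of all genes was -0.73. Leaving out 1 library gave 4 to 9 higher genes. Mki67, which encodes the Ki-67 antigen (chromosome 7, 135689784 to 135716361), had 238, 265 and 261 CPM in HSC and 193, 263 and 171 CPM in preGM, with overlapping groups (-0.29 ± 0.25, adjusted p = 0.378). Mki67 was called lower with library size alone (-1.02, adjusted p = 0.00226). It was also called lower without both MLL preGM replicate 1 and WT preGM replicate 2 (-0.48, adjusted p = 0.0146). Aurka had 42.5, 45.7 and 33.2 CPM in HSC and 194, 55.1 and 222 CPM in preGM. Replicate 2 lay just above the highest HSC library, and the log2 change was 1.96 ± 0.37 (adjusted p = 0.000739). Of 20 replication genes 3 (15%) rose (Rrm2, Cdc45 and Gins1), a share below the 18.4% of all genes, with a median of 0.17. With library size alone 1 rose and 5 fell (median -0.50), and 1 rose without HSC replicate 3 or preGM replicate 1. The calls for Cdc45 and Gins1 were lost in 6 and 3 of 16 alternative settings. Rrm2, a ribonucleotide reductase subunit, had 864, 267 and 1071 CPM in preGM against 199, 205 and 137 in HSC (2.02 ± 0.39). Cdc45 in preGM replicate 2 (52.0 CPM) fell below all 3 HSC libraries.

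Inhibitors and starters of the cycle moved in both directions. Cdkn1c, which encodes the p57 inhibitor associated with quiescent HSC, had 8.83, 8.29 and 13.5 CPM in HSC and 0.358, 0.791 and 0.285 CPM in preGM (-4.47 ± 0.42, adjusted p = 6.62e-07). Cdkn1b (p27) fell from 21.5 ± 0.365 to 10.8 ± 0.577 CPM. Cdkn1a (p21) rose, with 27.1, 23.3 and 41.7 CPM in HSC and 78.2, 149 and 62.8 CPM in preGM (1.65 ± 0.33). Ccnd1, the cyclin D1 gene, fell by 2.51 ± 0.25, and shares 21.3% of its exon bases. Of 16 tested genes of this list 2 rose (the other was Ccne1) and 5 fell (with Rbl1 and Rbl2), 43.8% against 38.5% of all genes, or 1 and 9 with library size alone. The calls for Ccne1, Rbl1 and Rbl2 were lost in 3, 3 and 4 of 16 alternative settings. Without preGM replicate 2 the counts were 5 and 6.

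Myc had 112, 135 and 94.1 CPM in HSC and 92.4, 68.3 and 152 CPM in preGM. The groups overlapped and the change did not pass (-0.13 ± 0.37, adjusted p = 0.817). Of 24 genes of the MYC network and ribosome biogenesis, 10 rose and 1 (Mxd4) fell, with a median of 0.79. The share called was 45.8%, against 38.5% of all genes, and the share higher 41.7%, against 18.4%. With library size alone 2 rose and 3 fell, and the median was 0.13. Srm, which encodes spermidine synthase, rose by 1.67 ± 0.31. Npm1 had 3167, 3261 and 3444 CPM in HSC and 9065, 5171 and 9616 CPM in preGM (1.27 ± 0.32, adjusted p = 0.00579), and Ncl went from 1163 ± 33.0 to 2323 ± 314 CPM. The calls for Npm1 and Ncl were lost with library size alone (adjusted p = 0.0772 and 0.273).

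The list of glycolysis and pentose phosphate genes numbered 20, of which 16 rose (80%, against 18.4% of all genes) and 2 fell. It had a median of 1.49, and 90% of its genes were called, against 38.5% of all genes. This was the list in which preGM replicate 2 differed the most from the other preGM libraries. The summed level was 5291, 5320 and 4795 CPM in HSC and 22574, 6928 and 22754 CPM in preGM. Replicate 2 was the lowest preGM library for 16 of the 20 genes, with a median log2 distance of -1.23 from the mean of replicates 1 and 3, against 0.12 over all genes. Aldoa, the aldolase gene (chromosome 7, 126795234 to 126800751), had 882, 924 and 837 CPM in HSC and 5337, 1239 and 4967 CPM in preGM (2.13 ± 0.42, adjusted p = 0.000961). Eno1 (enolase) had 398, 404 and 309 CPM in HSC and 3028, 472 and 3047 CPM in preGM (2.56 ± 0.49). Ldha, the lactate dehydrogenase gene, had 967, 1006 and 902 CPM in HSC and 3809, 898 and 3774 CPM in preGM, so replicate 2 lay below all HSC libraries (1.56 ± 0.41). Its call was lost with library size alone (adjusted p = 0.0890).

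Other genes of the list kept replicate 2 above HSC. Gapdh had 482, 433 and 458 CPM in HSC and 2241, 1153 and 2006 CPM in preGM (1.98 ± 0.31). Pgd and Tkt of the pentose phosphate branch rose by 2.64 ± 0.30 and 2.21 ± 0.34. Ldhb fell (-2.06 ± 0.30), from 130 ± 18.0 to 31.0 ± 11.5 CPM, as did the glucose transporter gene Slc2a3 (-0.80 ± 0.27), whose call was lost in 5 of 16 alternative settings (adjusted p up to 0.106). Without replicate 2, again 16 genes rose and 1 fell, with a median of 1.89. With library size alone 8 rose and 3 fell. Nuclear genes of the respiratory chain rose in 8 of 18 cases (median 0.80; 44.4%, against 18.4% of all genes). The count was 2 and 3 without HSC replicate 1 and 2, 5 without preGM replicate 1, 12 without preGM replicate 2 or MLL preGM replicate 1, and 1 with library size alone. Cycs, the cytochrome c gene, led them (2.31 ± 0.37, from 320 ± 31.6 to 1585 ± 566 CPM).

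Imprinted genes are expressed from 1 parental allele and are linked to HSC quiescence. All 12 tested ones fell, against 20.1% of all genes. The groups did not overlap for 9 of the 12, against 48.4% of all genes. The summed level of the list was 422 to 490 CPM in HSC and 195 to 233 CPM in preGM. The 12 genes had a median of -4.37, or -3.83 with H19 and Peg3, which had no counts in preGM, at their bounds. H19, a long non-coding RNA (chromosome 7, 142575529 to 142578143), had 2.68, 3.76 and 4.0 CPM in HSC and none in preGM, at least 33.2-fold lower. Ndn went from 18.9 ± 4.85 to 0.175 ± 0.0595 CPM (-6.77 ± 0.51), Dlk1 from 8.64 ± 0.973 to 0.141 ± 0.127 CPM (-6.03 ± 0.62) and its neighbour Meg3 from 7.18 ± 1.87 to 0.131 ± 0.0666 CPM (-5.80 ± 0.50). Grb10, a growth factor receptor adaptor, had 36.2, 43.2 and 42.8 CPM in HSC and 5.14, 5.54 and 5.75 CPM in preGM (-2.89 ± 0.23). Gnas fell the least (-0.85 ± 0.24, adjusted p = 0.0121). Its call was lost without preGM replicate 3 (adjusted p = 0.05), and it shares 21.8% of its exon bases. Peg3 and Plagl1 were under 2 CPM in every library. The call for Plagl1 was lost in 7 of 14 settings that tested it and that for Peg3 without HSC replicate 3 (adjusted p = 0.0592), where 9 of 13 tested genes of the list fell. Only these lists and genes were examined, and imprinting itself was not measured.

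Interferon response genes were lower in preGM in 10 of 14 cases, with 1 higher (78.6% called, against 38.5% of all genes). The median was -1.54. Oasl2 had 18.9, 14.2 and 11.1 CPM in HSC and 0.508, 0.0931 and 0.740 CPM in preGM (-4.94 ± 0.49, adjusted p = 1.26e-06). Usp18, a brake on interferon signalling, fell by 2.47 ± 0.40 and Ifit2 by 1.76 ± 0.37. The gene that rose was Bst2 (tetherin), from 67.3 ± 6.62 to 166 ± 62.7 CPM (1.30 ± 0.30), a call lost with library size alone (adjusted p = 0.0677).

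The partner genes of the fusion carried by the other strain were read in WT cells, where they show the normal levels. Kmt2a, which encodes the histone methyltransferase MLL (chromosome 9, 44803355 to 44881296), had 78.9, 72.5 and 72.7 CPM in HSC and 20.3, 28.3 and 17.6 CPM in preGM. The groups did not overlap (-1.76 ± 0.23, adjusted p = 2.24e-05). Mllt1, which encodes ENL, went from 21.3 ± 3.15 to 13 ± 1.04 CPM (-0.71 ± 0.22, adjusted p = 0.0177). That call was lost in 5 of 16 alternative settings, with adjusted p up to 0.0770. Mllt3, which encodes the related AF9, fell by 2.57 ± 0.23 and Psip1, the MLL cofactor LEDGF, by 1.64 ± 0.23. In all, 5 of 14 genes of these complexes fell and 1, Aff1, rose (0.63 ± 0.22, adjusted p = 0.0363). That is 42.9% called, close to the 38.5% of all genes, and with library size alone 10 fell and none rose. Aff1 passed in 7 of 16 alternative settings and turned to -0.09 with library size alone.

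Of 20 Polycomb and DNA methylation genes, 7 fell and 1 rose, with a median of -0.50. The share called (40%) is close to the 38.5% of all genes, and with library size alone 15 fell and none rose. The largest fall was that of Dnmt3b, a de novo methyltransferase, with 81.2, 91.0 and 79.7 CPM in HSC and 10.5, 14.7 and 9.59 CPM in preGM (-2.86 ± 0.23, adjusted p = 1.58e-07). Cbx7 (-2.77 ± 0.35), Tet1 (-2.34 ± 0.32), Cbx2 (-2.29 ± 0.37) and Dnmt3a (-0.97 ± 0.24) fell too. Tet2 was the gene that rose, from 16.6 ± 2.50 to 30.2 ± 3.25 CPM (0.86 ± 0.25, adjusted p = 0.0122), a call lost without HSC replicate 2 (0.0566) and with library size alone (0.645).

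Chemokine receptor and adhesion genes numbered 13, of which 7 rose and 2 fell (69.2% called, against 38.5% of all genes). The median was 0.71 (0.01 with library size alone). The leukocyte integrin chains Itgal (3.48 ± 0.38) and Itgb2 (2.83 ± 0.42) and the receptor gene Ccr1 (5.6 ± 0.55) rose. Itga6, the laminin receptor chain found on HSC, fell from 115 ± 5.75 to 23.9 ± 4.18 CPM (-2.26 ± 0.22), and Itgb1 fell by 0.65 ± 0.21, a call lost in 5 of 16 alternative settings. Among 11 tested BCL2 family genes 5 rose and 1 fell (54.5% called, against 38.5% of all genes). The median of 0.67 turned to -0.07 with library size alone. The death effector Bax went from 92.7 ± 17 to 383 ± 69.6 CPM (2.05 ± 0.27) and Pmaip1 (NOXA) from 0.726 ± 0.474 to 9.45 ± 1.10 CPM (3.66 ± 0.51). Bcl2, the survival gene, fell by 1.35 ± 0.21.

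**Figure D4:**
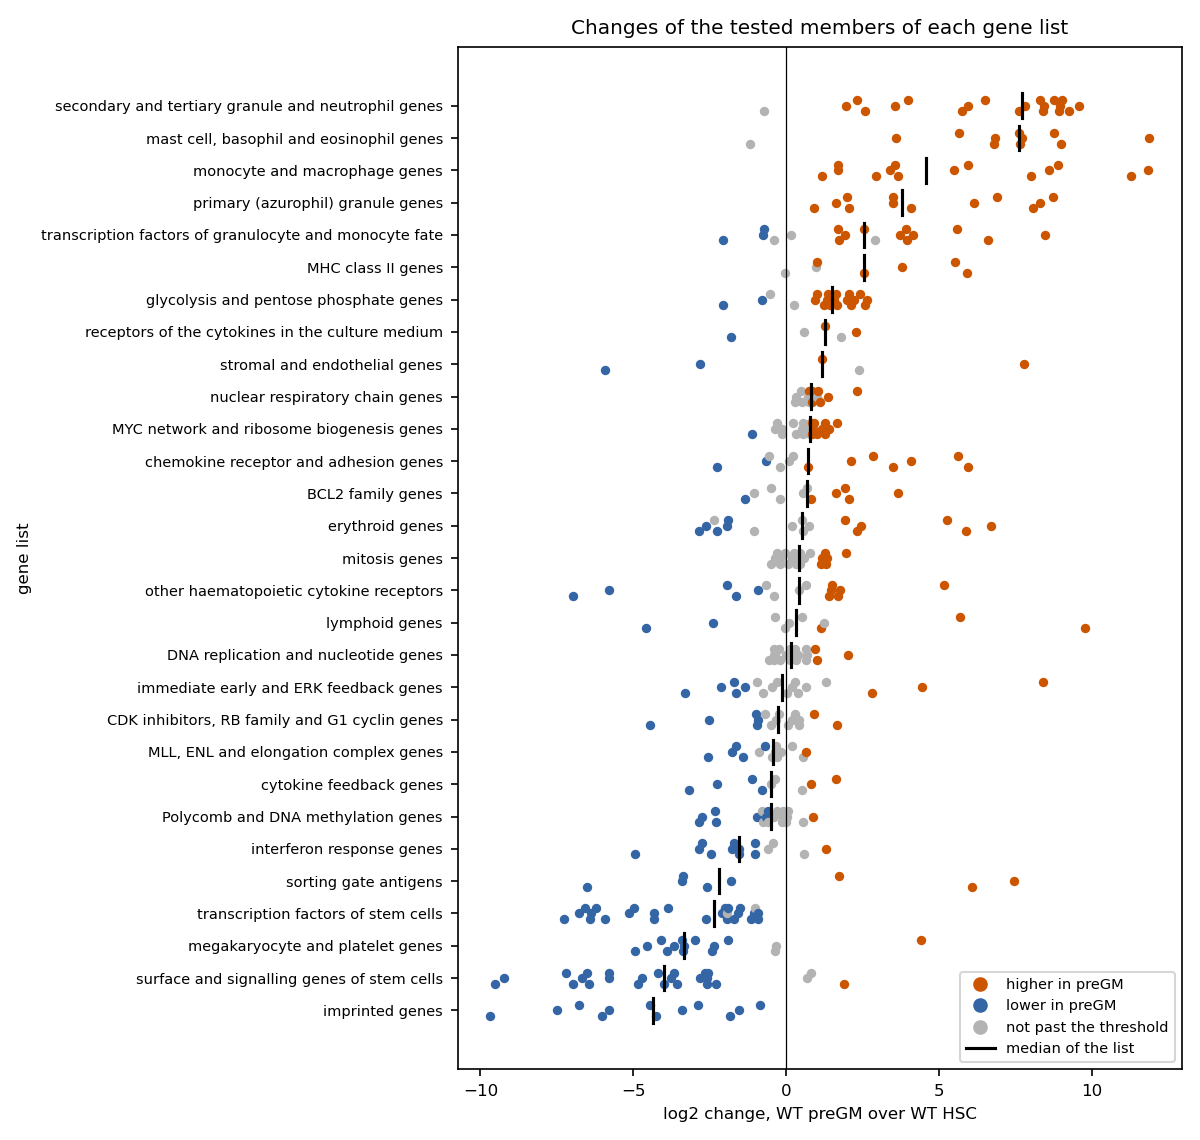
Log2 change (WT preGM over WT HSC) of every tested gene of the 29 gene lists, with 1 point per gene coloured by its call and a bar at the list's median, ordered by median. Imprinted and stem cell genes lie at the negative end (medians -4.37 and -4.0) and secondary granule genes at the positive end (7.71); with library size alone, medians of the erythroid, lymphoid, mitosis, replication, cytokine receptor and BCL2 family lists turned negative.

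The genes with the largest fitted changes, among protein-coding genes at 10 CPM or more in the higher group, with no overlap of libraries and under 10% of shared exon bases, extended these groups. Of the 10 that rose the most, 6 had no counts in HSC. These were the mast cell chymase gene Cma1 (15.9 ± 10.2 CPM in preGM, at least 97.8-fold higher), Mpeg1, Sh2d1b1 (13.8 ± 1.38 CPM, at least 84.5-fold), the receptor gene Pilrb2 (13.7 ± 4.13 CPM, at least 84.4-fold), the eosinophil gene Prg3 (12.3 ± 11 CPM, at least 75.8-fold) and Adgre1. The others were Gm9733, the lectin receptor gene Clec4a2 (0.0542 ± 0.00824 to 43.8 ± 3.0 CPM, log2 change 9.57 ± 0.40), Lcn2 and Saa3. Saa3, an acute-phase protein gene, had 10.7, 366 and 23.4 CPM in preGM, so replicate 2 held most of its RNA (9.53 ± 1.78).

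Of the 10 that fell the most, 5 belong to lists above, among them Robo4, Fgd5, Esam and Ndn. The other 5 were Obsl1 (12 ± 2.09 to 0.00949 ± 0.0164 CPM, log2 change -9.62 ± 0.62), the exchange factor gene Arhgef5 (-7.02 ± 0.70), the matrix protein gene Chad (31.6 ± 2.36 to 0.256 ± 0.156 CPM, -6.93 ± 0.40), the adaptor gene Lax1 (-6.87 ± 0.40) and the basement membrane collagen gene Col4a1 (42.1 ± 6.08 to 0.408 ± 0.161 CPM, -6.72 ± 0.43). These preGM levels lie near or below the floor of 0.105 CPM for Obsl1 and Arhgef5.

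Reads in introns, most of which come from unspliced RNA, gave a second measure on the same libraries. Of 9220 genes with enough intron counts, 873 (9.47%) were higher and 891 (9.66%) lower in preGM. Scaled with the factors of the exon counts instead, 385 were higher and 2223 lower. Of 8925 genes tested both ways 3627 were called on exons, 1207 of them were also called on introns, and 1187 of these had the same sign. Elane changed by 8.64 ± 0.58 on introns and by 8.73 ± 0.46 on exons, Ms4a3 by 7.93 ± 0.44 and 8.08 ± 0.44, Mecom by -6.62 ± 0.55 and -6.23 ± 0.31, and Meis1 by -3.89 ± 0.24 and -3.86 ± 0.40. Among the list genes, 274 had both tests, 119 passed on introns, and 106 of these were called on exons with the same sign.

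For some genes the intron and exon values differed. Csf1r rose by 9.36 ± 1.41 on introns and 1.70 ± 0.39 on exons. Mycn fell by 5.93 ± 0.37 on exons and its intron change of -1.60 ± 0.91 did not pass (adjusted p = 0.238). Tfrc rose by 2.31 ± 0.30 on exons and had an intron change of -0.03 ± 0.55 (adjusted p = 0.978), and Psip1 had -1.64 ± 0.23 and 0.10 ± 0.35 (adjusted p = 0.877). The difference between intron and exon changes was not tested, and counts were made without regard to strand, so intron reads may come from an overlapping gene.

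**Figure D5:**
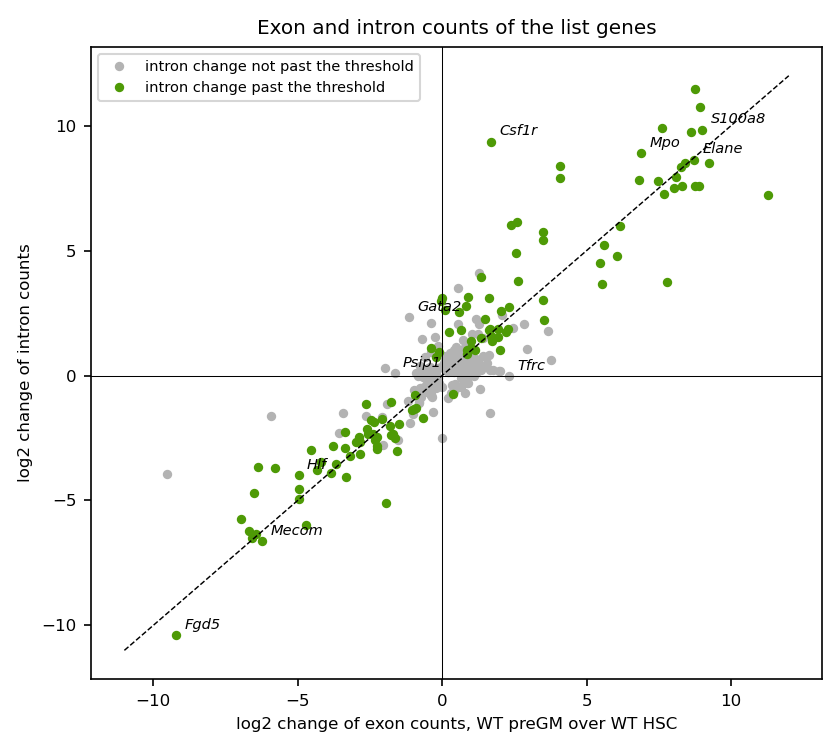
Log2 change of intron counts (vertical axis) against that of exon counts (horizontal axis), WT preGM over WT HSC, for the 274 list genes with both tests; green points passed the threshold on introns and the dashed line marks equal changes. Elane, Mecom and Hlf lie close to the line, while Csf1r lies above it and Tfrc near 0 on introns.

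The same gates in the MLL/ENL strain gave the context for the WT difference. There 3199 genes were higher and 3321 lower in preGM than in HSC. The difference between the strains in the preGM to HSC change passed for 492 of 15711 genes (3.13%), of which 385 were called in WT. For 359 of those 385 the sign of the strain difference was opposite to that of the WT change. The WT libraries enter both the WT change and this difference, so these signs are not independent of each other. Cebpa, Gfi1, Ctsg, Ms4a3, Esam and Hlf did not pass the test of the difference (adjusted p = 0.534, 0.508, 0.531, 0.186, 0.533 and 0.464).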

How the data were processed

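Per the labels' protocols, RNeasy micro columns yielded the RNA, and a SMARTer kit for low input the libraries. The deposited files list, for exons, introns and spliced transcripts, a raw read count and an RPKM value, per the file headers. The authors' counts were used and the authors' RPKM values entered no test. TopHat2 2.0.8, Bowtie2 2.1.0, HTSeq and edgeR are named in the submitters' processing notes, without roles, and for the genome build no name is given in the sources used here. Of 93615 transcripts, 89664 (95.8%) matched GENCODE M21 (GRCm38) by identifier, and 77052 of these (85.9%) had identical exons.

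Gene counts were sums of the deposited counts over whichever exons of a gene, none overlapping another, cover the most bases, which gave 37614 genes. Counting took no account of strand: for all 1928 exons of at least 50 counts inside an intron of the opposite strand, that intron's count was at least as high. Genes sharing at least 10% of exon bases numbered 3895. All 12 libraries, in 4 groups, entered 1 edgeR 4.0.16 quasi-likelihood fit (R 4.3.3) with TMM scaling, robust dispersions and filterByExpr (minimum count 10, minimum total 15), and the biological coefficient of variation was 0.321. Tests were two-sided with Benjamini-Hochberg adjustment over all tested genes and a threshold of 0.05. Standard errors (SE) were the log2 change over the square root of the F statistic. The script was tested on simulated data. Levels are CPM, as mean ± SD with n = 3. A floor of 3 counts per library, 0.163 CPM in WT HSC and 0.105 in WT preGM, covers counting error only (PCR copies carry no molecular identifiers). Levels per length are counts per kilobase of counted exon and megacount. Intron counts used introns that overlap no exon. Promoters came from RefSeq tables for GRCm38.p6.

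Genes named were members of 29 lists written from general knowledge, and the 10 largest called changes each way among protein-coding genes of at least 10 CPM in the higher group, without overlap and with under 10% of exon bases shared; Rpl32, Plac8, Tmsb4x, Gpx1 and Lars2 were chosen after their values were seen. A few members are counted but not reported here by name. The libraries were taken by sample title, but this comparison, the gene lists and the rules were chosen with earlier results of these data known. Every pair of libraries within a WT group differed by more than sampling noise (chi-square over degrees of freedom of 17.0 to 536.3). Alternatives were DESeq2 1.42.0, other scaling, no filter, the 6 WT libraries alone, each distinct exon interval once, thinned counts, a replicate block and leaving out libraries.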

Additional observations from a re-analysis of the deposited data

Results flagged for a closer look

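The preGM to HSC change was tested for a difference between the strains (edgeR interaction, MLL/ENL minus WT), which passed for 492 genes. Named genes past the threshold are given here with the log2 size of that difference, and its cause was not tested. Of stem cell transcription factors, Meis1 had 2.80, Mecom 2.25, Hoxa9 1.30 and Hoxa10 3.39, each opposite in sign to the fall in WT. Of surface and signalling genes, the difference was 3.21 for Fgd5, 2.89 for Adgrg1, 3.20 for Cd34, 3.0 for Slamf1, 1.47 for Angpt1, 2.16 for Itga2b and -2.42 for Ly6a, the last in the direction of the WT fall. Cd48 had 4.93, in the direction of its WT rise, and Fcgr3 -2.40.

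Among myeloid transcription factors, values were -2.33 for Spi1, -2.99 for Cebpd, -4.07 for Klf4, -3.89 for Id2 and 1.48 for Mef2c. Granule and neutrophil genes had -1.86 for Elane, -7.94 for S100a8, -8.21 for S100a9, -7.61 for Ngp, -8.76 for Camp, -9.63 for Ltf, -4.54 for Lcn2, -14.04 for Fpr1, -6.56 for Cybb, -6.82 for Chil3 and -3.43 for Lyz2. Monocyte and MHC class II genes had -3.25 for Ly6c2, -7.49 for Mpeg1, -5.66 for Cd74, -6.35 for H2-Aa, -2.58 for H2-Ab1 and -5.94 for H2-Eb1. Of mast cell and basophil genes, Mcpt8 had -3.42, Cpa3 -3.01, Prss34 -6.55 and Fcer1a 2.82.

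In the remaining lists, Selp had 1.86, Thbs1 -4.97, Dntt 14.39, Flt3 3.18, Satb1 3.03, Vcam1 -9.45, Csf2ra -1.96, Fos -5.33, Klf2 -6.81, Tkt -1.91, Dlk1 6.66, Meg3 3.27, Grb10 1.24, Mllt3 -1.33, Dnmt3b 2.35, Itgal 2.51 and Bax -1.63. Among the largest WT changes, Clec4a2 had -7.18, Saa3 -9.21 and Lax1 3.02. Fpr1, Mpeg1, Vcam1 and Dntt had no counts in any library of at least 1 group, so the size of their values depends on the prior count of the fit.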

How the results depend on the processing

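Scaling by library size alone gave 1190 higher and 6149 lower genes in WT preGM against WT HSC. Leaving out 1 of the 6 WT libraries or MLL preGM replicate 1 gave 2265 to 3485 higher and 2308 to 3626 lower, both upper ends without MLL preGM replicate 1. For introns the exon scaling factors gave 385 higher and 2223 lower, and leaving out 1 library 605 to 1020 and 608 to 929. For the strain difference (169 higher, 323 lower), DESeq2 gave 389 and 664, and leaving out 1 library 90 to 250 and 209 to 444: the higher count moved without MLL HSC replicate 1 (107), 2 (97) or 3 (103) or WT preGM replicate 1 (90), and the lower without MLL HSC replicate 2 (213) or WT preGM replicate 1 (209). Direction turned for Ifitm1 (-0.05), Csf3r (-0.14), Aff1 (-0.09) and Rpl32 (-0.29) with library size alone, for Lars2 without preGM replicate 2 (-0.01, range over left-out libraries -0.01 to 1.56), and for Myc without HSC replicate 2 (0.02), without preGM replicate 2 (0.11; lowest -0.49, without preGM replicate 3) and without both WT preGM replicate 2 and MLL preGM replicate 1 (0.11, and -0.01 for Lars2); none of these but Aff1 was called. HSC depth of 14.53 to 18.16 megacounts limits genes near 0.163 CPM. Same-numbered WT HSC and preGM libraries did not deviate together (correlations 0.004, -0.087 and -0.104, and no HSC library correlated best with its own number). Deviations from means of 3 libraries cannot decide whether the numbers mark a shared animal or day. With the replicate block 2622 genes were higher and 2913 lower, 846 and 819 on introns, and 131 and 273 for the strain difference.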

Other observations

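Levels per length were ranked among tested protein-coding genes, without mitochondrial genes and genes sharing at least 10% of exon bases. The highest were mostly ribosomal protein genes in both WT groups, led by Rpl32 (10765 in HSC and 14756 in preGM, in counts per kilobase and megacount). Of the 15 highest in preGM, 3 that passed the test and belong to no list described above were chosen here after their values were seen. Plac8, a small cysteine-rich protein gene of myeloid progenitors, went from 302 to 5184 per kilobase and megacount (log2 change of counts 4.10, adjusted p = 1.93e-06). Tmsb4x, which encodes the actin-binding thymosin beta 4, went from 1316 to 5914 (2.17, adjusted p = 0.000522), and Gpx1, a glutathione peroxidase gene, from 1743 to 5293 (1.60, adjusted p = 0.00132). Lars2 was uneven, with 10482, 45553 and 8461 CPM in preGM against 7946 to 11827 CPM in HSC, and did not pass (adjusted p = 0.114). Its high library was preGM replicate 2, which also had the most ribosomal-RNA-like counts.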
